A study of Mus musculus with 6 samples.

Results

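Solute carriers are the largest class of membrane transport proteins in mammals, and their genes share the symbol prefix Slc followed by a family number. The 186 solute carrier genes described here are those of the count table whose mouse symbol starts with Slc and a digit and which reached a raw level of 1 CPM (read counts scaled to library size) in at least 3 of 6 libraries. They come from 375 genes of that name in a table of 27179, after 6 carriers tied to iron, erythroid cells and cystine (Slc40a1, Slc11a2, Slc25a37, Slc25a38, Slc4a1 and Slc7a11) were set aside. The threshold used levels alone, and 172 of the 186 reached it in all 6 libraries. Slc6a8 and Slc26a9 passed through the 3 panobinostat libraries with 0 vehicle libraries at the threshold, so the choice itself favoured a difference in these 2, which are counted among the higher carriers below. Just inside the threshold were Slc35d3 (third-highest level 1.03 CPM), Slc39a14 (1.20) and Slc9a3r2 (1.36). Just outside were Slc11a1 (0.997), Slc12a5 (0.981) and Slc25a29 (0.954).

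The cells are acute myeloid leukemia cells of C57BL/6 mice, labelled A/E9a;NRASG12D. Both groups carry the alleles of that name, the short splice variant of the AML1-ETO fusion and mutant NRAS. For 3 days the mice received vehicle or panobinostat, an inhibitor of histone deacetylases, and GFP-positive viable cells were then sorted from the spleen, giving 3 libraries per group. The labels give neither the number of leukemia clones nor whether each library had its own animal, so p-values reflect library-to-library spread alone, possibly technical.

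A cell takes up nearly all of its water-soluble nutrients through such carriers. Some work by facilitated diffusion, others exchange one solute for another or draw on the sodium, proton or chloride gradient, and a large mitochondrial family links the cytosol with the matrix. Dividing leukemia cells depend on a steady supply of glucose, amino acids, folate and other vitamins, while metal carriers keep zinc and copper available but below toxic levels. In blood cell development many carriers are also stage markers, for example the glycine and glucose carriers that serve heme synthesis and red cell metabolism.

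Total counts ran from 25794869 to 32571961 per library, so 1 count was worth 0.0315 to 0.0403 CPM. Libraries bear the leading number of their count column, which names the group but no replicate: 2, 3 and 4 for vehicle and 1, 5 and 6 for panobinostat. The column names hold further numbers of unstated meaning. The last of them is 1 in library 1 and 3 in every other library. All levels below are CPM scaled by TMM factors, the composition factors of edgeR. Among the leukemia's progenitor and mast cell genes, Kit was at 210 to 221 CPM under vehicle and 163, 321 and 229 CPM in panobinostat libraries 1, 5 and 6, and the mast cell gene Hdc at 1130 to 1334 CPM and 912, 2100 and 1607 CPM. Ms4a2 was at 359 to 468 CPM under vehicle and 205, 620 and 498 CPM in these libraries, so all 3 genes were below the vehicle range in library 1 and above it in libraries 5 and 6. Fcer1a, Cpa3 and Cd34 were also below the vehicle range in library 1. Gata1 and Gata2 were not, at 246 to 262 and 346 to 436 CPM under vehicle. In libraries 1, 5 and 6 Gata1 was at 441, 315 and 323 CPM and Gata2 at 619, 751 and 609 CPM. The whole list of 9 genes, of which 2 rose (Gata1 and Gata2), summed to 4426 to 5208 CPM under vehicle and 5779 to 6360 CPM under panobinostat. Of this Car2 made 2023 to 2600 CPM under vehicle and 3996, 1643 and 2317 CPM in libraries 1, 5 and 6. Erythroid markers, 14 genes with the globins, summed to 7181 to 9285 CPM under vehicle and to 74732, 40365 and 34590 CPM in panobinostat libraries 1, 5 and 6, and 11 of the 14 rose. Red pulp macrophage markers summed to 18.2 to 27.1 CPM under vehicle and to 79.3, 52.4 and 28 CPM in the same 3 panobinostat libraries, with 2 of 11 tested markers higher. Megakaryocyte markers went from 299 to 342 CPM under vehicle to 534 to 714 CPM, and 6 of 7 tested markers rose. Gp5 made 216 to 244 CPM of this under vehicle and 321 to 370 CPM under panobinostat (log2 fold change 0.58). Pf4 and Itga2b, at lower levels, had log2 fold changes of 2.55 and 2.62. Dendritic cell markers went from 83.8 to 97.2 CPM to 177 to 254 CPM, with 3 of 5 tested markers higher (Bst2, Zbtb46 and Clec9a). Bst2 alone made 71.2 to 87.1 CPM and 154 to 236 CPM of these sums. T cell, B cell, NK cell and neutrophil markers summed to at most 9.65 CPM each in any library. No marker listed for another cell type was at 0 counts in all 6 libraries. The part of these other cells in the carrier results was not tested, and in bulk RNA fewer cells of a type cannot be told apart from less RNA per cell.

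Promoters of 4 carriers that passed the test are shown as examples, 2 lower and 2 higher under panobinostat. Each holds a searched motif, as do promoters of other carriers that passed, and overlaps annotated exons by at most 7 bases. Each is the 250 bases before the RefSeq start (GRCm38), written 5′ to 3′ on the gene's strand, with the motif letters in capitals. Slc35g1 (chr19:38395730-38395979, plus strand) and Slc16a1 (chr3:104638414-104638663, plus strand) were lower. Slc26a9 (chr1:131743772-131744021, plus strand) and Slc35e3 (chr10:117746359-117746608, minus strand) were higher, of which Slc26a9 entered through the treated libraries alone.
Slc35g1: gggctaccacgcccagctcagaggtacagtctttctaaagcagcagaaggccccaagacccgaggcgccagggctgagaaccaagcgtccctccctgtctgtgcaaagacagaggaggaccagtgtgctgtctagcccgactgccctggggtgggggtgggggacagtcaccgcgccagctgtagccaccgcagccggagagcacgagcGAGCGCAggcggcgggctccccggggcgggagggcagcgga
Slc16a1: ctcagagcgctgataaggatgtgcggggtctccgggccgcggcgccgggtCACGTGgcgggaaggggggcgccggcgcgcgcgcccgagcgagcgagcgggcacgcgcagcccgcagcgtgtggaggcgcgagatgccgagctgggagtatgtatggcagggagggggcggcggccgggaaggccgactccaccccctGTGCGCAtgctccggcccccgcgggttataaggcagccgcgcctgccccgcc
Slc26a9: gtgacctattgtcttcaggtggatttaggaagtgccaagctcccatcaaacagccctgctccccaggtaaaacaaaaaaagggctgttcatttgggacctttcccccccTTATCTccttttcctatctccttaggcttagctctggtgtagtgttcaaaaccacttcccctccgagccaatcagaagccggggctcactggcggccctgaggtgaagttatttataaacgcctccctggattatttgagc
Slc35e3: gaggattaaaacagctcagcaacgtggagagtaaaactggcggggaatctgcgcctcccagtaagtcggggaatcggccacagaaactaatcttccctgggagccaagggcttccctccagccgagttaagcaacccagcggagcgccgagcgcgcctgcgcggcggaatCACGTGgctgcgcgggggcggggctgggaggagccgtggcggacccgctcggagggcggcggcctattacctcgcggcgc
In Slc35g1 the capitals mark the metal response core (TGCACNC or TGCGCNC, here on the reverse strand) 41 to 35 bases before the start. Slc16a1 holds the E-box CACGTG 200 to 195 bases before its start and a metal response core at 52 to 46. Slc26a9 holds the GATA motif AGATAA, read on the reverse strand, at 141 to 136, and Slc35e3 holds an E-box at 80 to 75, in a window whose last 7 bases GENCODE places in an exon.

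RefSeq windows were found for 15 of the 20 lower carriers, 16 of the 25 higher ones and 113 of the other 141, and both strands were searched. The E-box stood in 4 of 15 windows of lower carriers (Slc12a7, Slc16a1, Slc25a15 and Slc30a5), in 2 of 16 of higher carriers and in 16.8% of those that did not pass, beside 6.86% of 27025 genes. The metal response core stood in 6 of 15 lower and 6 of 16 higher carriers, in 31.9% of those that did not pass and in 23.8% of all genes. The GATA motif stood in 2 of 15 lower and 3 of 16 higher carriers, beside 9.73% and 11.4%. The interferon response element (TTTC, any 2 bases, TTTC) stood in 1 of each, beside 0.885% and 3.46%. A match describes letters only, and these shares were not tested.

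Of the 186 carriers, 25 were higher and 20 lower under panobinostat by edgeR's quasi-likelihood test at an adjusted p under 0.05, and 141 did not pass. These 45 make up 24.2% of the carriers, near the 21.0% of all 12916 tested genes and the 22.1% of genes at the same level threshold. The higher share was 13.4% beside a background of 11.3%, and the lower share 10.8% beside 9.72%. With library size as the sole scaling, 14 were higher and 31 lower, with all 20 of the lower calls kept and Slc6a20a, Slc6a20b, Slc26a10, Slc41a3, Slc30a1, Slc25a22, Slc22a18, Slc45a4 and Slc48a1 among the higher calls lost. That scaling gave 1135 higher and 2065 lower of all 12916 tested genes, and moved their median from 0.01 to -0.10 on the log2 scale. The median log2 fold change was 0.06 over the carriers, and 98 of 186 were positive. Changes that passed were moderate, with log2 fold changes from 0.38 to 2.52 (median 0.79) among the higher and from -2.49 to -0.36 (median -0.66) among the lower. At least 2-fold were 7 higher carriers (background 4.93% of tested genes) and 5 lower ones (background 1.49%). Slc6a8 and Slc26a9, which entered through the treated libraries alone, are among the 7. The 2 groups did not overlap for 47.8% of carriers (background 44.6%), including all 45 that passed.

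The calls rested on few libraries. Leaving out vehicle library 2, 3 or 4 kept 2, 6 and 0 of the 25 higher calls and 5, 9 and 4 of the 20 lower ones. Leaving out panobinostat library 1, 5 or 6 kept 23, 16 and 14 of the higher and 18, 13 and 15 of the lower. At an unadjusted p under 0.05 by edgeR, all 25 and all 20 held in each of these fits. That is no separate support, because these genes were picked from the same libraries at a stricter threshold. Over all tested genes the calls fell from 2715 to 438 without vehicle library 4. Only Slc23a4, Slc30a2, Slc35g1 and Slc7a5, all lower, passed in each of these 6 fits. Each other of the 45 calls was lost in at least 1 of them. None of the 45 changed sign, which is no separate support, because their groups did not overlap with all libraries in.

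**Figure D1:**
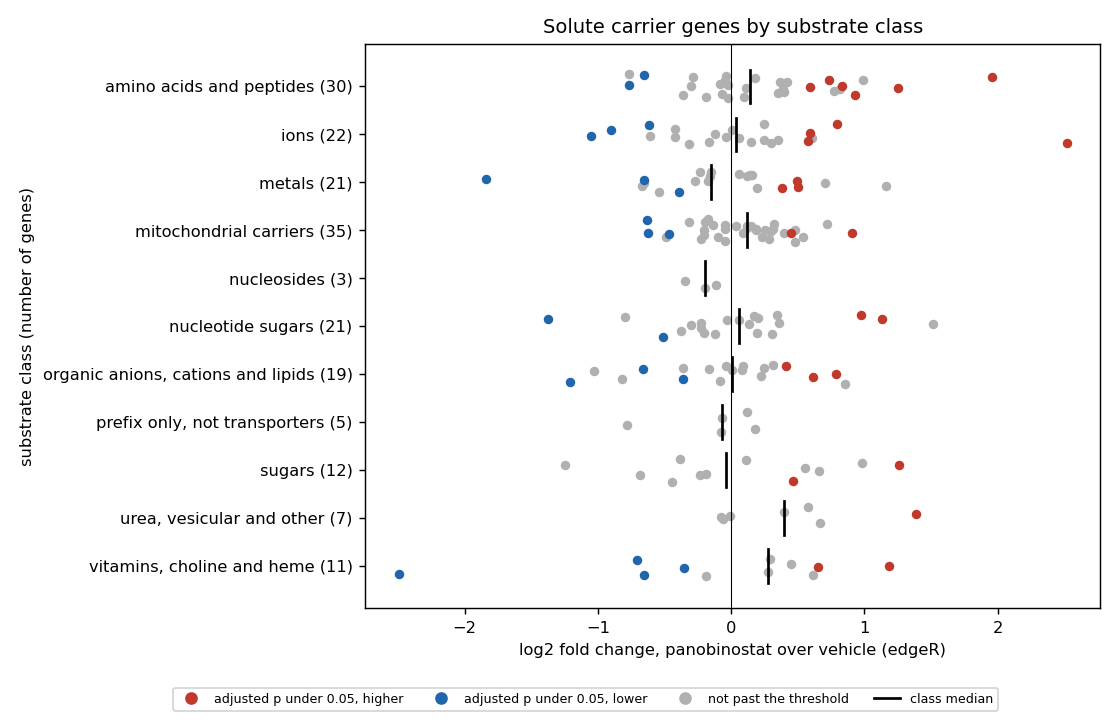
Log2 fold change of panobinostat over vehicle (x axis, edgeR) for the 186 solute carrier genes, 1 point per gene, by substrate class (y axis); filled colours mark the genes that passed at an adjusted p under 0.05. Vertical bars are class medians, and the points run from Slc23a4 at -2.49 to Slc26a9 at 2.52.

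The lower carriers that passed in every fit serve different substrates. Slc30a2 moves zinc into vesicles and lies on chromosome 4 from 134343046 to 134354484 (GRCm38, gene 230810). Its level was 72.5, 59.3 and 62.2 CPM in vehicle libraries 2, 3 and 4 and 13.6, 18.7 and 21.9 CPM in panobinostat libraries 1, 5 and 6. All 3 treated libraries lay far below the lowest vehicle library, a log2 fold change of -1.84 ± 0.18 (SE, adjusted p = 0.0036). Slc35g1 (gene 240660, chromosome 19 from 38395980 to 38405607) belongs to the family of nucleotide sugar transporters, though its own substrate is less settled. It stood at 73.4, 73.6 and 75.1 CPM under vehicle and at 32.3, 21.9 and 31.6 CPM under panobinostat. The vehicle libraries were nearly equal and the groups were well apart (-1.37 ± 0.15, adjusted p = 0.0042).

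Slc23a4 (gene 243753, chromosome 6 from 34945286 to 34988495) is a member of the family that includes the vitamin C carriers, and in rodents it is known as a nucleobase carrier. It measured 6.24, 7.62 and 8.53 CPM under vehicle and 1.01, 1.01 and 1.92 CPM under panobinostat. Every treated library fell below every vehicle library, by the largest amount among the carriers (-2.49 ± 0.31, adjusted p = 0.0050). Slc7a5 (gene 20539, chromosome 8 from 121881146 to 121907686) encodes the light chain of the importer of leucine and other large neutral amino acids. Its levels of 412, 361 and 330 CPM under vehicle and 225, 228 and 250 CPM under panobinostat did not overlap (-0.65 ± 0.11, adjusted p = 0.011). Per kilobase of exon its vehicle level of 104 ± 11.8 CPM (SD, n = 3) was among the highest of all carriers.

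**Figure D2:**
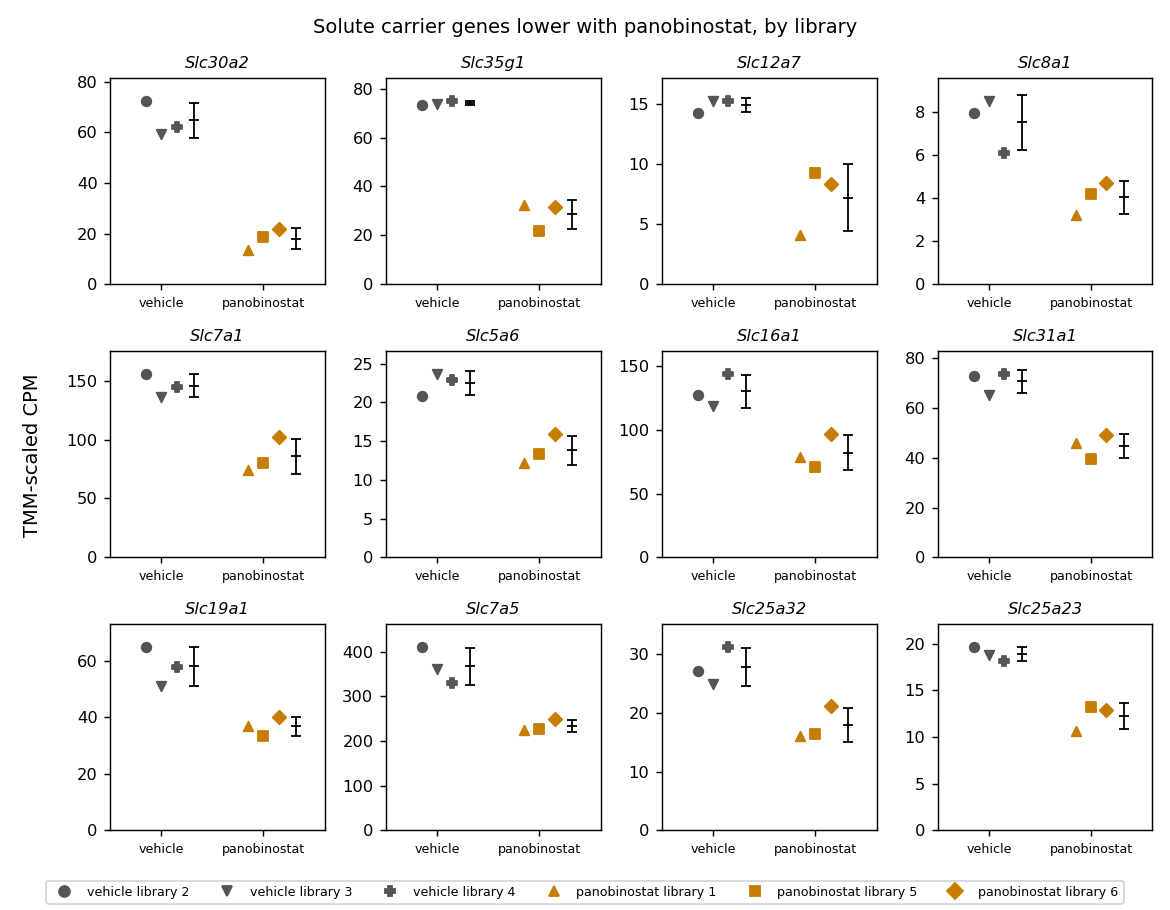
Level (y axis, TMM-scaled CPM) in each library for the 12 carriers lowest in log2 fold change among those that passed with a mean of at least 5 CPM; symbols are single libraries and the bars beside them are the mean and SD of the 3 libraries. In each gene, Slc30a2, Slc35g1 and Slc7a5 among them, the 3 panobinostat points lie below all vehicle points, which the choice of these genes required.

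Among 30 amino acid and peptide carriers, 6 rose and 2 fell (median log2 fold change 0.14). Class counts here and below stand beside 11.3% higher and 9.72% lower over all 12916 tested genes. No class was tested as a set. The 2 that fell were the importers Slc7a5 and Slc7a1, the latter a carrier of arginine and lysine. Slc7a1 was at 156, 136 and 145 CPM under vehicle and 74.1, 80.4 and 103 CPM under panobinostat, with no overlap (-0.77 ± 0.13, adjusted p = 0.012). The heavy chain Slc3a2, which holds Slc7a5 at the cell surface, stayed at 242 ± 17.4 CPM under vehicle and 236 ± 17.8 CPM under panobinostat (SD, n = 3, adjusted p = 0.81), and its groups overlapped. The ratio of Slc7a5 to Slc3a2 within a library was 1.74, 1.38 and 1.44 under vehicle and 0.996, 0.888 and 1.11 under panobinostat. It did not overlap, but with 3 libraries a group the exact 2-sided permutation p cannot go below 0.1, the value it took (0.12 adjusted over 6 ratios, picked with their values known).

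The glutamine carrier Slc1a5 missed the threshold at 183 ± 8.98 and 150 ± 7.52 CPM (SD, n = 3, -0.29 ± 0.09, adjusted p = 0.054), although every treated library was below every vehicle library. Slc38a2, a sodium-coupled carrier of small neutral amino acids, was at 327 ± 70.2 and 287 ± 49 CPM with overlap (adjusted p = 0.50). Slc43a1, a facilitated carrier of large neutral amino acids, was at 166 ± 11.4 and 188 ± 79.5 CPM, and the endolysosomal histidine and peptide carrier Slc15a4 at 26.8 ± 6.29 and 26.3 ± 4.08 CPM. Its relative Slc15a3 was below the level threshold and was not tested.

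In these families, which by number also take in creatine and nucleobase carriers, those higher were Slc43a2, Slc43a3, Slc6a8, Slc6a9, Slc6a20a and Slc6a20b. Slc43a2 (gene 215113, chromosome 11 from 75529915 to 75577575) is a facilitated carrier of branched-chain amino acids, phenylalanine and methionine. It measured 26.1, 26.6 and 18.7 CPM under vehicle and 45.1, 76.3 and 48.6 CPM under panobinostat. The treated libraries were all higher, library 5 most of all (1.25 ± 0.23, adjusted p = 0.014). Slc43a2 thus moved opposite to Slc7a5. Their ratio within a library was 0.0568 to 0.0736 under vehicle and 0.195 to 0.335 under panobinostat (exact 2-sided permutation p = 0.1, the smallest possible, 0.12 adjusted). The non-overlapping groups of both genes fixed that separation in advance, so it is no separate result. Slc43a3 has the same family number but carries purine nucleobases. It rose from 220 ± 7.44 to 330 ± 48.3 CPM (SD, n = 3, 0.59 ± 0.12, adjusted p = 0.017).

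Slc6a9, the glycine carrier, stood at 73.8, 77.3 and 64.7 CPM under vehicle and at 193, 111 and 108 CPM in panobinostat libraries 1, 5 and 6. Library 1 was highest, and the groups did not overlap (0.93 ± 0.23, adjusted p = 0.030). The gene's span overlaps Ccdc24, and without a stated strand setting their reads cannot be told apart, which holds for every overlap named below. The creatine carrier Slc6a8 was low, at 0.485 to 0.745 CPM under vehicle and 1.73 to 3.19 CPM under panobinostat (1.96 ± 0.33). It too entered through the treated libraries alone, and this is a description. The proline carrier Slc6a20a (19.1 ± 4.13 and 33.8 ± 9.54 CPM, adjusted p = 0.0496) and its close copy Slc6a20b (6.91 ± 0.890 and 11.5 ± 2.72 CPM, adjusted p = 0.0485) passed narrowly, and reads may be split between them.

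**Figure D3:**
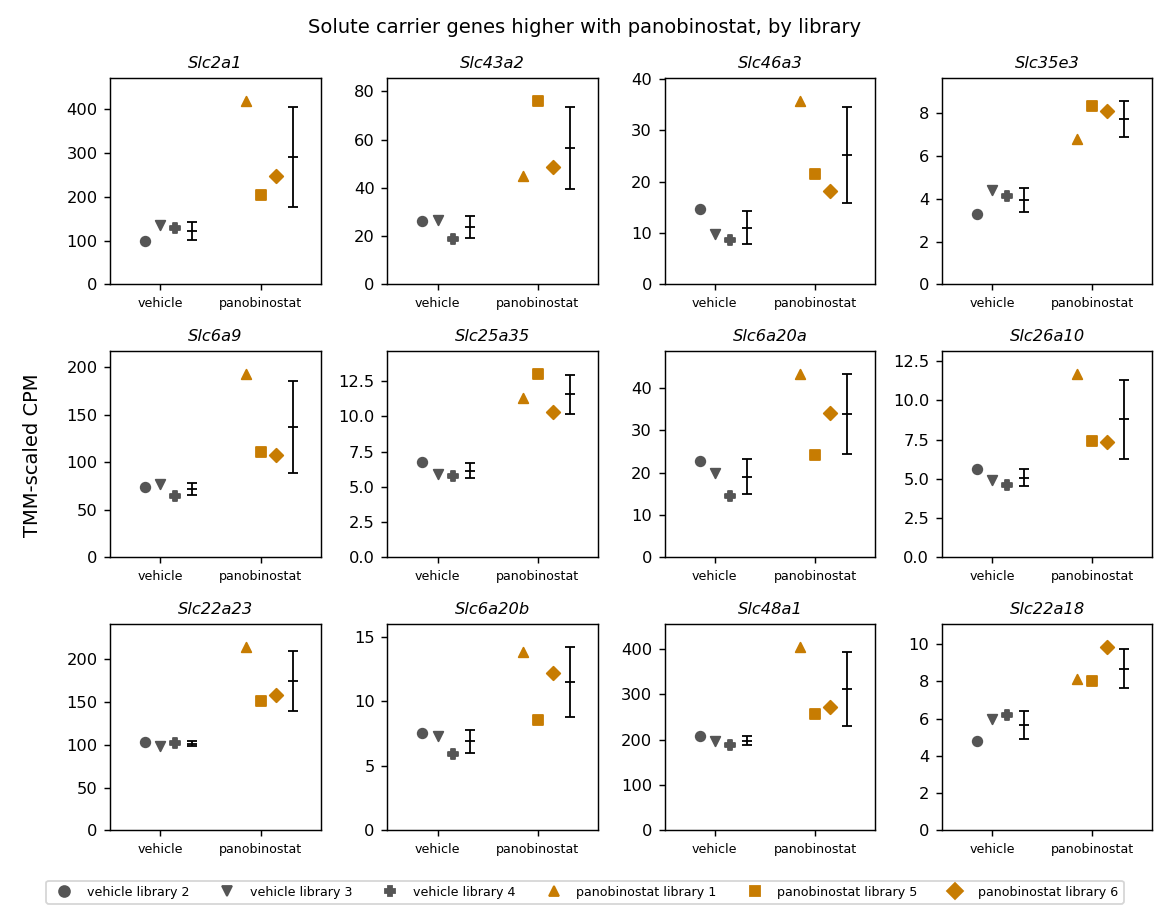
Level (y axis, TMM-scaled CPM) in each library for the 12 carriers highest in log2 fold change among those that passed with a mean of at least 5 CPM; symbols are single libraries and the bars beside them are the mean and SD of the 3 libraries. Panobinostat points lie above all vehicle points in each of these genes, which their choice required, and in Slc2a1 and Slc6a9 library 1 lies highest.

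Of 12 sugar carriers 2 rose, and the other 10 did not pass (median -0.04). The glucose carrier Slc2a1 (gene 20525, chromosome 4 from 119108745 to 119137330) measured 98.4, 136 and 129 CPM under vehicle and 419, 205 and 248 CPM in panobinostat libraries 1, 5 and 6. All treated libraries were above all vehicle libraries, with library 1 far above the rest (1.26 ± 0.27, adjusted p = 0.020). Slc2a3, the other main glucose carrier of these cells, was at 352, 446 and 349 CPM under vehicle and at 438, 824 and 546 CPM under panobinostat. Here library 5 was highest, library 1 lay within the vehicle range, and the difference did not pass (0.66 ± 0.23, adjusted p = 0.083). Without panobinostat library 1 it did (0.84, adjusted p = 0.017). The ratio of Slc2a1 to Slc2a3 was 0.956 in library 1, 0.249 in library 5 and 0.453 in library 6, against 0.280 to 0.371 under vehicle (exact 2-sided permutation p = 0.50).

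Slc45a3 and Slc45a4 belong to a family of proton-coupled sugar carriers. Slc45a4 rose from 37.3 ± 0.934 to 51.5 ± 5.97 CPM (SD, n = 3, 0.47 ± 0.11, adjusted p = 0.025). Slc45a3 was at 159 to 194 CPM under vehicle and 203, 530 and 302 CPM in panobinostat libraries 1, 5 and 6. Its groups did not overlap, yet it missed the threshold (0.98 ± 0.32, adjusted p = 0.065). Summed over the 12 genes, sugar carriers reached 863 to 1018 CPM under vehicle and 1285, 1803 and 1323 CPM under panobinostat, while 6 of the 12 had a negative log2 fold change.

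Among 11 carriers of vitamins, choline and heme 2 rose and 4 fell (median 0.27), beside 11.3% higher and 9.72% lower over all tested genes. One of those lower, Slc23a4, is counted here by its family number although it is known in rodents as a nucleobase carrier. The others were Slc19a1, Slc5a6 and Slc52a2. The reduced folate carrier Slc19a1 measured 65.1, 51.2 and 57.9 CPM under vehicle and 37.1, 33.4 and 40 CPM under panobinostat. The groups were clearly apart (-0.66 ± 0.12, adjusted p = 0.014). Its thiamine-carrying relative Slc19a2, chosen after its values were seen, measured 51.4 ± 10.5 and 70.0 ± 12.4 CPM, short of the threshold (SD, n = 3, adjusted p = 0.13). Slc5a6, which imports biotin and pantothenate, fell from 22.5 ± 1.51 to 13.8 ± 1.93 CPM (-0.70 ± 0.14, adjusted p = 0.015), and its span overlaps Atraid. The riboflavin carrier Slc52a2, also chosen after its values were seen, fell from 27.7 ± 1.22 to 21.6 ± 0.307 CPM (adjusted p = 0.039).

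Slc48a1, which carries heme out of lysosomes, was at 207, 197 and 189 CPM under vehicle and 405, 257 and 271 CPM in panobinostat libraries 1, 5 and 6. All treated libraries were higher, library 1 the most (0.65 ± 0.18, adjusted p = 0.040), and its span overlaps Hdac7. Slc46a3, a lysosomal carrier of the folate and heme carrier family, rose from 11 ± 3.15 to 25.1 ± 9.35 CPM (SD, n = 3, 1.18 ± 0.30, adjusted p = 0.033), again with library 1 highest at 35.8 CPM. The choline carrier-like gene Slc44a2 was at 205 ± 15.8 and 247 ± 25.9 CPM (adjusted p = 0.12).

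Of 21 metal carriers 3 rose and 3 fell (median -0.15). The copper importer Slc31a1 was at 73.1, 65.4 and 74.0 CPM under vehicle and 46.1, 39.5 and 49.1 CPM under panobinostat. Both groups were tight and did not overlap (-0.66 ± 0.11, adjusted p = 0.011), but the span overlaps Fkbp15. Slc30a5, which brings zinc into the secretory pathway, fell from 93.3 ± 6.49 to 71.0 ± 5.49 CPM, and Slc30a1, the zinc exporter of the plasma membrane, rose from 14.3 ± 0.214 to 20.2 ± 2.92 CPM (SD, n = 3; adjusted p = 0.031 and 0.039). Both were chosen after their values were seen. Within the zinc family Slc30a1 and Slc30a2 thus moved in opposite directions. Their ratio was 0.196 to 0.245 under vehicle and 0.892 to 1.29 under panobinostat (exact 2-sided permutation p = 0.1, the smallest possible, 0.12 adjusted). That separation was fixed in advance by the non-overlapping groups of both genes and is no separate result. Slc39a13, a zinc carrier of internal membranes, rose from 11.1 ± 0.290 to 15.8 ± 1.06 CPM (adjusted p = 0.026), and Slc41a3, of the magnesium carrier family, from 163 ± 12.2 to 213 ± 19.3 CPM (adjusted p = 0.040). Slc39a7, which releases zinc from the endoplasmic reticulum, measured 116 ± 6.51 and 103 ± 4.30 CPM (adjusted p = 0.18).

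Among 22 ion carriers 4 rose and 3 fell (median 0.04). The potassium-chloride cotransporter Slc12a7 was at 14.3, 15.2 and 15.3 CPM under vehicle and 4.07, 9.23 and 8.36 CPM under panobinostat. Library 1 was the lowest treated library, and the groups did not overlap (-1.05 ± 0.29, adjusted p = 0.040).

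Slc8a1, the sodium-calcium exchanger, fell from 7.54 ± 1.28 to 4.04 ± 0.747 CPM (SD, n = 3, -0.90 ± 0.22, adjusted p = 0.030). The phosphate carrier Slc20a2 fell from 19.9 ± 1.38 to 13 ± 1.48 CPM (-0.62 ± 0.13, adjusted p = 0.020), while its relative Slc20a1 measured 111 ± 11.1 and 132 ± 23.8 CPM (adjusted p = 0.26). Slc20a2 overlaps Smim19. In the anion exchanger family, Slc26a10 rose from 5.06 ± 0.543 to 8.80 ± 2.51 CPM (adjusted p = 0.048). Slc26a9, a chloride carrier whose promoter is printed above, stood at 0.259, 0.780 and 0.446 CPM under vehicle and at 2.67, 4.15 and 1.73 CPM under panobinostat. The fitted log2 fold change was 2.52 ± 0.49, on few counts. It entered through the treated libraries alone, so its difference is given as a description.

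Among 35 mitochondrial carriers 2 rose and 3 fell (median 0.12). The most abundant per kilobase, among the 184 carriers with an exon length, was Slc25a5, the main ADP/ATP exchanger of these cells, at 582 ± 11.7 CPM per kb under vehicle (SD, n = 3). It measured 722 ± 14.6 CPM under vehicle and 641 ± 26.6 CPM under panobinostat and did not pass (adjusted p = 0.19). Slc25a4, the exchanger of heart and muscle, stood at 1.68 ± 0.307 and 1.88 ± 1.09 CPM, and the phosphate carrier Slc25a3 at 258 ± 11.8 and 221 ± 2.33 CPM (adjusted p = 0.089). Slc25a32, which brings folate into mitochondria, fell from 27.7 ± 3.26 to 17.9 ± 2.85 CPM (-0.63 ± 0.15, adjusted p = 0.028). Slc25a23, a calcium-regulated carrier of ATP-magnesium and phosphate, fell from 18.9 ± 0.763 to 12.3 ± 1.42 CPM (-0.62 ± 0.13, adjusted p = 0.018). Slc25a35, whose substrate is not settled, rose from 6.14 ± 0.534 to 11.5 ± 1.38 CPM (0.91 ± 0.16, adjusted p = 0.012), in a span that overlaps Rangrf. The other 2 calls, chosen after their values were seen, were the ornithine carrier Slc25a15, lower (34.8 ± 1.25 and 25.2 ± 2.77 CPM, adjusted p = 0.028), and the glutamate carrier Slc25a22, higher (48.7 ± 0.629 and 66.4 ± 9.08 CPM, adjusted p = 0.032).

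Among 21 members of the nucleotide sugar family 2 rose and 2 fell (median 0.06). Besides Slc35g1, the GDP-fucose carrier Slc35c1 was lower, at 216, 304 and 306 CPM under vehicle and 187, 198 and 194 CPM under panobinostat. The treated libraries were nearly equal, and vehicle library 2 lay close to them (-0.51 ± 0.14, adjusted p = 0.043). Slc35d2, a carrier of UDP-N-acetylglucosamine, rose from 3.13 ± 0.548 to 6.87 ± 2.28 CPM (SD, n = 3, 1.13 ± 0.28, adjusted p = 0.030), and Slc35e3, without a settled substrate, from 3.95 ± 0.577 to 7.75 ± 0.850 CPM (0.97 ± 0.19, adjusted p = 0.015). Slc35a4 was at 144 ± 3.79 and 123 ± 9.03 CPM (adjusted p = 0.10). The nucleoside carriers were 3, and none passed by edgeR, DESeq2 or limma-voom, with 0 of 3 at an unadjusted p under 0.05. Slc29a1, the main one, was at 201 ± 31.2 and 176 ± 53.5 CPM, and the lysosomal Slc29a3 at 30.1 to 34.4 CPM under vehicle and 26.8 to 31.5 CPM under panobinostat.

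Of 19 carriers of organic anions, cations and lipids 3 rose and 3 fell. The lactate and pyruvate carrier Slc16a1 was at 127, 119 and 144 CPM under vehicle and 78.9, 70.8 and 97.1 CPM under panobinostat. All treated libraries were lower (-0.66 ± 0.14, adjusted p = 0.018), whereas the lactate exporter Slc16a3 measured 63.2 ± 13.8 and 56.4 ± 5.19 CPM (SD, n = 3, adjusted p = 0.50). Slc16a10, a carrier of aromatic amino acids, rose from 104 ± 4.27 to 139 ± 9.82 CPM (adjusted p = 0.020), and the carnitine carrier Slc22a5 fell from 24.8 ± 0.990 to 19.3 ± 1.09 CPM (adjusted p = 0.047). These last 2 were named with their values already seen. Slc22a23, without a settled substrate, rose from 102 ± 2.48 to 175 ± 35 CPM (0.79 ± 0.14, adjusted p = 0.013), and Slc22a18 from 5.66 ± 0.736 to 8.67 ± 1.04 CPM (adjusted p = 0.047). Slc22a13b, annotated as not protein coding, fell from 4.70 ± 0.160 to 2.03 ± 0.595 CPM (-1.21 ± 0.25, adjusted p = 0.019). Its near-copy Slc22a13, chosen after its values were seen, was at 2.92 ± 0.376 and 1.43 ± 0.518 CPM (adjusted p = 0.054), and reads may be split between them. The cation carrier Slc22a3 was abundant, at 364, 459 and 437 CPM under vehicle and 127, 313 and 274 CPM under panobinostat. Its groups did not overlap and library 1 was lowest, and it did not pass (-0.82 ± 0.31, adjusted p = 0.097; without that library -0.52, adjusted p = 0.022).

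Of 7 urea, vesicular and other carriers 1 rose, Slc17a4, a phosphate and urate carrier, at 0.951 ± 0.380 and 2.51 ± 0.350 CPM (SD, n = 3, adjusted p = 0.027). The urea carrier Slc14a1 was at 24.5 ± 2.26 and 36.7 ± 7.95 CPM and missed the threshold (0.58 ± 0.17, adjusted p = 0.052). The vesicular monoamine carrier Slc18a2, used by mast cells to store histamine, was at 78.1, 139 and 101 CPM under vehicle and 101, 235 and 169 CPM under panobinostat, with overlap (adjusted p = 0.18). The vesicular nucleotide carrier Slc17a9 was at 21.7 ± 1.57 and 21.6 ± 4.13 CPM. A further 5 genes share the prefix but are not carriers, among them the scaffold Slc9a3r1 (246 ± 15.5 and 267 ± 71.4 CPM) and Slc7a6os (34.8 ± 2.1 and 33 ± 2.09 CPM). None of the 5 passed by edgeR, DESeq2 or limma-voom, with 0 at an unadjusted p under 0.05.

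The panobinostat libraries differed from each other more than the vehicle libraries did. The range over the treated libraries exceeded that over the vehicle libraries in 143 of 186 carriers, and passed 1 log2 unit in 27 carriers against 5. Over all tested genes, principal component 2 (27.3% of variance) placed panobinostat libraries 1, 5 and 6 at -47.0, 35.6 and 12.9. Vehicle libraries 2, 3 and 4 lay at -12.8, 11.5 and -0.188. The range counts, and the library counts that follow, were made for carriers only and are not read as particular to them. Of the 25 higher carriers 13 were highest in library 1, 11 in library 5 and 1 in library 6 (Slc22a18). Of the 20 lower carriers 13 were lowest in library 1 and 7 in library 5. The amino acid carrier Slc7a8, chosen after its values were seen, was at 100, 176 and 76.4 CPM under vehicle and at 41, 268 and 141 CPM in panobinostat libraries 1, 5 and 6. The treated libraries reached beyond the vehicle range on both sides. Slc38a1, a glutamine carrier, was at 22.8 CPM in library 1 but 4.92 and 6.84 CPM in the other two, against 4.11 to 8.51 CPM under vehicle (adjusted p = 0.37). Without library 1, 39 carriers were higher and 23 lower, beside 2192 higher and 1864 lower of all 13041 genes tested in that fit.

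**Figure D4:**
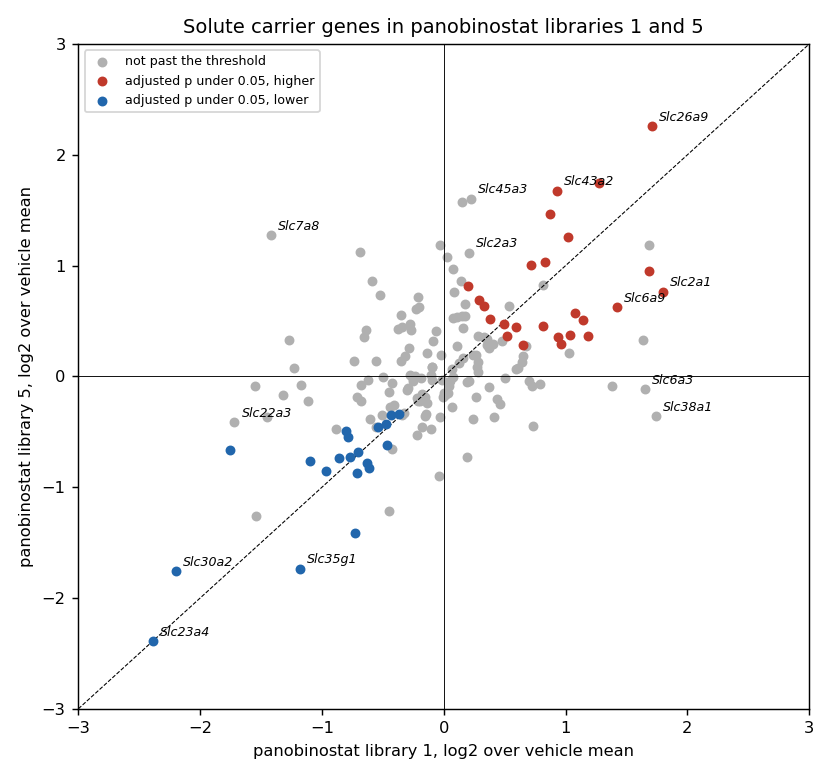
Log2 ratio to the vehicle mean (CPM plus 0.5) in panobinostat library 1 (x axis) and library 5 (y axis) for the 186 carriers, 1 point per gene, with colours for those that passed; the dashed line marks equal values. Slc2a1 and Slc38a1 lie towards library 1, Slc2a3 and Slc45a3 towards library 5, and Slc30a2, Slc35g1 and Slc23a4 are low in both.

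Other transport genes give a comparison, beside 11.3% higher and 9.72% lower over all 12916 tested genes. None of these lists was tested as a set. Of 65 listed carriers of the same superfamily with other symbols, 48 were tested, and 12 rose and 4 fell (median 0.12). The smallest p belonged to Nipal3 (81.0 ± 7.90 and 147 ± 18.8 CPM, adjusted p = 0.0068), of a magnesium carrier family, to the lysosomal cystine exporter Ctns (18.5 ± 0.648 and 29.7 ± 1.61 CPM, adjusted p = 0.0073) and to Mtch1, an outer mitochondrial membrane protein (165 ± 10.6 and 109 ± 6.57 CPM, adjusted p = 0.0081). Of 41 ATP-driven ABC transporters 25 were tested and 6 rose (median 0.48), led by Abca7, a lipid transporter (170 ± 11.8 and 319 ± 44.4 CPM, adjusted p = 0.0060), with Abcc5 and Abcc10. None of the ABC genes fell by edgeR, DESeq2 or limma-voom, and 2 were lower at an unadjusted p under 0.05. Of 15 tested sodium pump subunits and carrier partners 3 rose and 2 fell. The pump's beta subunit Atp1b2 rose from 129 ± 21.8 to 236 ± 3.45 CPM (adjusted p = 0.0073). Cd320, the receptor for vitamin B12 bound to transcobalamin, fell from 9.31 ± 0.806 to 5.40 ± 0.984 CPM (adjusted p = 0.027).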

How the data were processed

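RNA was measured in 6 libraries, 3 per group. The authors deposited whole-number read counts per gene by Entrez gene ID, 1 column per library. Per the submitters' processing notes the tools were HISAT2 2.1.0 against mm10, Subread 2.0.0 with featureCounts, cutadapt 2.1, FastQC 0.11.6, bcl2fastq 2.17.1.14 and limma. Annotation, strandedness and the treatment of multi-mapped reads were not given in the sources used here. Libraries were made with the TruSeq RNA kit, per the labels' protocols.

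Names came from RefSeq for GRCm38 for 25275 of 27179 genes and from GENCODE for 18, and 1886 had none. Promoter windows are RefSeq's. Genes were filtered with filterByExpr, scaled by TMM factors and tested with edgeR 4.0.16 in R 4.3.3 (quasi-likelihood F test, treatment only), with Benjamini-Hochberg adjustment over all 12916 tested genes and calls at an adjusted p under 0.05. Standard errors were approximated from each gene's log2 fold change and the square root of its F value. The value of a single count covers counting error only. Alternatives used DESeq2 1.42.0, limma-voom (limma 3.58.1), other scalings and filters, and each library left out.

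The carriers and lists were chosen with earlier results of these data known. Substrate classes follow the family number, and Slc4a1ap, Slc7a6os and Slc2a4rg-ps were moved to the genes that share only the prefix after their values were seen. Named carriers were the 12 highest and 12 lowest that passed with a mean of at least 5 CPM, up to 3 that passed with the smallest p and the 2 most abundant per kilobase in each class, and a set of always named ones (such as Slc2a1, Slc3a2 and Slc7a5). In each other transporter list the 3 with the smallest p were named. Some genes that enter the counts are not reported here by name.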

Additional observations from a re-analysis of the deposited data

How the results depend on the processing

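Over 61 named carriers, RLE factors and a fit without globin genes kept every call and direction. Library size alone gave 14 higher and 31 lower carriers (1135 and 2065 of all 12916 tested genes), with a median log2 fold change of -0.047. DESeq2 gave 33 higher and 30 lower with all 45 calls kept (1872 and 1694 of all 12916 tested genes), limma-voom 21 and 21 (1373 and 1268), with Slc6a20a, Slc6a20b, Slc26a10 and Slc35c1 among the calls lost. No filter on low counts gave 20 and 18, beside 1372 and 1192 of 18792 tested genes. The calls lost were Slc6a20b, Slc26a10, Slc41a3, Slc30a1, Slc22a18, Slc22a5 and Slc52a2. Requiring a 2-fold change left 7 higher and 5 lower. Leaving out 1 library gave 0 to 39 higher, 4 to 23 lower and a median from -0.027 (without panobinostat library 5) to 0.073. The low counts came without vehicle library 4, where 303 genes were higher and 135 lower of all 13203 tested. The high ones came without panobinostat library 1, where 2192 were higher and 1864 lower of 13041. Directions that turned belonged to carriers that did not pass. Slc25a4 was at -0.018 by limma-voom and Slc17a9 at 0.0042 with a filter of 1 CPM in 3 libraries. With 1 library left out, log2 fold changes ran from -0.10 to 0.017 for Slc3a2, -0.21 to 0.10 for Slc15a4, -0.21 to 0.41 for Slc43a1, -0.19 to 1.13 for Slc38a1, -0.41 to 0.44 for Slc25a4, -0.42 to 0.020 for Slc29a1, -0.31 to 0.0071 for Slc16a3, -0.058 to 0.32 for Slc9a3r1 and -0.15 to 0.12 for Slc17a9. The cause was not tested. No paired analysis was possible because the columns carry no replicate number of the labels. With 3 libraries per group and up to 0.0403 CPM per count, differences in carriers near 1 CPM rest on few counts.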

Other observations

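Below the level threshold stood 189 solute carrier genes, of which 68 had 0 counts in all 6 libraries and 25 were tested by edgeR. Slc24a1, a sodium, calcium and potassium exchanger of photoreceptors, had 14, 9 and 8 counts in vehicle libraries 2, 3 and 4 and 37, 32 and 27 counts in panobinostat libraries 1, 5 and 6 (log2 fold change 1.66, adjusted p = 0.018). Slc26a11, an anion carrier, had 10, 5 and 3 counts against 23, 33 and 14 (2.01, adjusted p = 0.045). Slc12a1, the sodium, potassium and chloride cotransporter of the kidney, had 18, 16 and 18 counts under vehicle and 6, 3 and 4 under panobinostat (-1.96, adjusted p = 0.014). In each of these 3 genes the groups did not overlap, on few counts. They were chosen after their values were seen.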
